A study of Oryza sativa with 16 samples.

Results

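salT and Dhn1 are rice genes linked to salt and water shortage. Their RNA was followed here in untreated leaves of 2 rice parents and of pooled lines from their cross. Every probe set (a group of short probes that reads 1 transcript) annotated to either gene by symbol or alias was taken. That gave 2 genes of the 17905 read by the array, and 5 probe sets of 57194. salT (LOC4326471, chromosome 1, also listed as ML and MRL) has 2 probe sets. Dhn1 (LOC4330265, chromosome 2, also listed as Dip1, LIP9 and OsDhn1) has 3. Both genes were chosen from measured values, and were taken here as chosen from the difference between the pooled lines, in which both had been seen to be lower in the aromatic pool. That difference is therefore given as a description with no test, and the difference between the parents was tested. Whether parental values also entered the choice is not recorded. If they did, the parental p-values of salT and Dhn1 are descriptions too.

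The aromatic parent was Pusa 1121, a scented basmati rice, and the non-aromatic parent was Pusa 1342. The aromatic bulk pooled 6 highly aromatic recombinant inbred lines, which are lines selfed until each is nearly fixed for its own mixture of the parental genomes, and the non-aromatic bulk pooled 6 non-aromatic lines. All plants were grown in an experimental field under natural conditions with no treatment, and fresh healthy leaves were taken 25 days after the seedlings were transplanted. Each group was measured on 4 Affymetrix arrays, 16 in all. Each bulk stands for 6 lines together, so the level in any single line is not known. The labels call the arrays of a group biological replicates without saying whether different plants or pools were sampled for each. The p-values therefore measure the spread between arrays, which may be partly technical.

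When a rice plant runs short of water, the hormone abscisic acid (ABA) builds up and binds its receptors, which then hold back a family of protein phosphatases. This frees the SnRK2 protein kinases, called SAPK in rice, to activate bZIP transcription factors that switch on protective genes. Dhn1 encodes a dehydrin, a very hydrophilic protein thought to shield membranes and other proteins as cells dry, cool or take up salt. salT encodes a small mannose-binding lectin of the jacalin-related family, first found as a protein that accumulates in rice under salt and drought.

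The arrays gave 1 intensity per probe set on a linear scale of arbitrary units, between 0.201 and 45123, with a median of 64.2 on every array. Correlations of log2 intensity between arrays were 0.914 to 0.934 within groups and 0.882 to 0.906 between groups, and no array stood apart. The leaf genes RBCS, RCA, CAB2R and FBP1 were bright and summed to between 112605 and 132064 on every array. Of 3 root markers, the silicon transporter genes LSI1 and LSI2 read 942.7 to 2628 and 2.21 to 4.46 over the 16 arrays, and the iron transporter gene IRT1 read 83.25 to 236.5. In whole leaves, fewer cells of a type and less RNA per cell cannot be told apart.

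salT readings of the 4 groups did not overlap, though those of the aromatic bulk and the aromatic parent came close on the first probe set. The parents and the pools ranked in opposite ways for salT. Its RNA was most abundant in the non-aromatic bulk and least abundant in the non-aromatic parent, with the aromatic bulk and the aromatic parent between them. The aromatic parent had 4.19-fold more than the non-aromatic parent, while the non-aromatic bulk had 2.31-fold more than the aromatic bulk. The non-aromatic bulk carried 11.1 times as much salT RNA as the non-aromatic parent.

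On the first salT probe set, the 4 arrays of the aromatic bulk read 1295, 1154, 1308 and 1150, with a mean of 1227 ± 86.4 (SD, n = 4). The non-aromatic bulk read 2699, 3084, 2762 and 2767, with a mean of 2828 ± 173.5 (SD, n = 4). All 4 of these arrays lay above every array of the other groups. The aromatic parent read 1052, 1144, 1038 and 1047, with a mean of 1070 ± 49.4 (SD, n = 4). The non-aromatic parent read 284.6, 234.3, 245.8 and 256.4, with a mean of 255.3 ± 21.5 (SD, n = 4), so that its brightest array was well under the dimmest array of any other group. No neighbouring groups in the order overlapped, although the aromatic bulk and the aromatic parent came close, since their nearest arrays differed by a factor of 1.01. The aromatic parent exceeded the non-aromatic parent by 2.07 on the log2(value + 1) scale (SE 0.0851, limma adjusted p = 4.13e-10), and all 4 of its arrays were higher. Between the bulks the aromatic minus non-aromatic difference was -1.20 (SE 0.0851). The difference between the parents minus that between the bulks was 3.27 (SE 0.12), given with no test because the second term chose the gene.

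**Figure D1:**
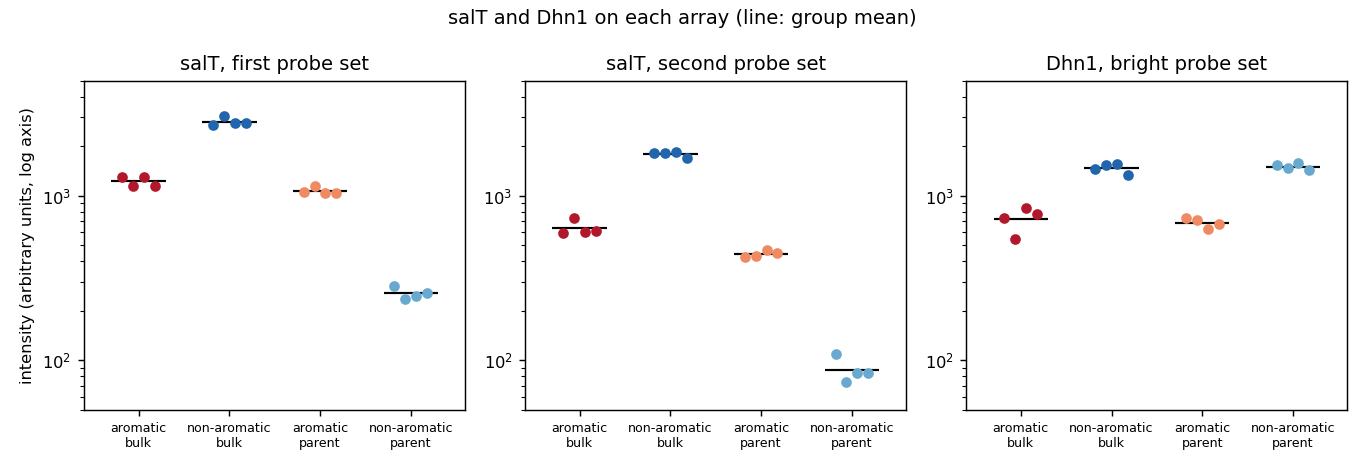
Intensity (arbitrary units, log axis) of both salT probe sets and of the bright Dhn1 probe set on each array; each point is 1 array, 4 per group, and the line is the group mean. For salT the non-aromatic bulk is highest (mean 2828 on the first probe set) and the non-aromatic parent lowest (255.3), whereas for Dhn1 both non-aromatic groups (means 1477 and 1507) lie above both aromatic groups (726.4 and 687.9).

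The second salT probe set gave the same order of groups. The aromatic bulk read 593.8, 734.9, 604.9 and 614.3, and the non-aromatic bulk read 1833, 1815, 1846 and 1710. The means were 637 ± 65.8 and 1801 ± 61.8 (SD, n = 4 each), and the arrays of the bulks did not overlap. The aromatic parent read 425.3, 431.8, 469 and 447.6, and the non-aromatic parent read 108.9, 73.27, 84.11 and 83.07. The parental means were 443.4 ± 19.5 and 87.3 ± 15.2 (SD, n = 4 each), again without overlap. The aromatic parent was 5.08-fold higher, or 2.35 on the log2 scale (SE 0.112, limma adjusted p = 1.82e-09). The non-aromatic bulk was 2.83-fold above the aromatic bulk, with an aromatic minus non-aromatic difference of -1.50 (SE 0.112). Both probe sets read 1 gene, so they are not separate evidence for it.

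Neither pool of lines lay between the parents for salT. On the first probe set the aromatic bulk was above the aromatic parent by 0.20 on the log2 scale (a ratio of means of 1.15), and the non-aromatic bulk was above the non-aromatic parent by 3.47. Single arrays of the non-aromatic bulk exceeded single arrays of the non-aromatic parent between 9.48 and 13.2 times. On the second probe set the same differences were 0.52 and 4.36, with ratios of means of 1.44 and 20.6. All 8 bulk arrays thus read above all 8 parental arrays on both probe sets, a pattern that 2.35% of all 57194 probe sets shared. The full order of salT, from the non-aromatic bulk down through the aromatic bulk and the aromatic parent to the non-aromatic parent with no overlap, was found in 73 probe sets, or 0.128%, the salT probe sets among them. The step between the bulks, which is part of this order, chose the gene, so nothing is read from that share.

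The salT probe sets did not move quite in parallel. The first minus the second, on the log2 scale, was 0.65 ± 0.0972 in the non-aromatic bulk and 0.95 ± 0.222 in the aromatic bulk. For Pusa 1121 it was 1.27 ± 0.111, and for Pusa 1342 it was 1.55 ± 0.125 (SD, n = 4 each). The gap thus widened as the signal fell, and the second probe set gave the larger fold differences. Its suffix marks probes that may also bind other transcripts, and the part of such binding, or of sequence differences between the varieties under the probes, was not tested.

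Dhn1 followed the aroma groups instead. Its RNA was about equally abundant in both non-aromatic groups and about equally abundant in both aromatic groups, and the aromatic side was lower by a similar amount in parents and pools. On the bright Dhn1 probe set, the aromatic parent read 736.2, 714.2, 628 and 673.1, with a mean of 687.9 ± 47.7 (SD, n = 4). The non-aromatic parent read 1548, 1472, 1575 and 1433, with a mean of 1507 ± 65.8 (SD, n = 4). The parents did not overlap. The aromatic parent was lower by 2.19-fold, a log2 difference of -1.13 (SE 0.119, limma adjusted p = 5.13e-06), on all 4 arrays.

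The aromatic bulk read 733, 548.7, 849.2 and 774.8 on the bright Dhn1 probe set, with a mean of 726.4 ± 127.9 (SD, n = 4), the widest spread of the 4 groups. The non-aromatic bulk read 1456, 1549, 1555 and 1349, with a mean of 1477 ± 96.8 (SD, n = 4). All 8 aromatic arrays therefore lay below all 8 non-aromatic arrays, which 3.4% of all probe sets also showed. Nothing is read from this share, because the difference between the bulks is part of the pattern and chose the gene. The difference between the bulks was -1.04 (SE 0.119), or 2.05-fold. In the order of levels, the non-aromatic parent and the non-aromatic bulk overlapped, as did the aromatic bulk and the aromatic parent. The non-aromatic bulk minus its parent was -0.03 and the aromatic bulk minus its parent 0.063 on the log2 scale (SE 0.119 each). The parental difference minus the bulk difference was -0.093 (SE 0.169), so that the estimates of the 2 contrasts lay within 1 SE of each other, where salT's differed by 3.27.

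Between the parents, salT passed the test on both probe sets in the higher direction, as did 12.5% of all probe sets, and Dhn1 on 1 of 3 in the lower direction, as did 13.4%. Parental arrays did not overlap on 3 of the 5 probe sets, against 30.1% of all probe sets. The bulk arrays did not overlap on the same 3 of 5, against 23.4% of all, and nothing is read from that count because the bulks chose the genes.

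The other Dhn1 probe sets were dim and did not separate the groups. On the first of them, the aromatic bulk read 3.139, 24.14, 45.16 and 33.07 and the non-aromatic bulk 5.663, 33.67, 18.63 and 2.72. The aromatic parent read 4.133, 18.41, 2.416 and 51.18 and the non-aromatic parent 57.69, 51.21, 73.46 and 26.04. The arrays of the parents overlapped, and so did those of the bulks. The aromatic minus non-aromatic difference was -2.11 between the parents (SE 0.971, limma adjusted p = 0.146) and 0.82 between the bulks. Without array 4 of the aromatic parent the parental difference was -2.84, with a limma adjusted p of 0.0457, so this 1 array decides the call.

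On the second dim probe set, the aromatic bulk read 10.67, 4.26, 8.205 and 67.02 and the non-aromatic bulk 5.864, 52.06, 10.52 and 6.342. The aromatic parent read 15.37, 12.37, 31.13 and 8.728 and the non-aromatic parent 18.83, 13.72, 12.28 and 38.09. All 4 groups overlapped. The parental difference was -0.29 (SE 0.792, limma adjusted p = 0.861), and it turned to 0.042 without array 4 of the non-aromatic parent. The bulk difference was 0.08 and ran from -0.68 to 0.75 with 1 array left out, at -0.68 without array 4 of the aromatic bulk, -0.24 and -0.20 without arrays 1 and 4 of the non-aromatic bulk, and 0.75 without array 2 of the latter. Over both dim probe sets, all but 2 readings lay under the array median of 64.2. At such intensities a difference of the size seen on the bright probe set was not detectable.

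**Figure D2:**
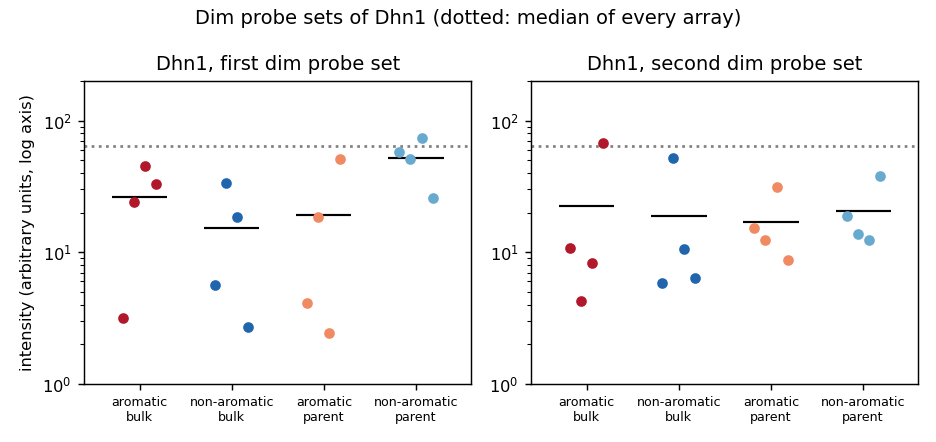
Intensity (arbitrary units, log axis) of the dim Dhn1 probe sets on each array; points are single arrays, 4 per group, solid lines are group means, and the dotted line is the array median of 64.2. The groups overlap on both, apart from a tendency of the non-aromatic parent to read high on the first (26.04 to 73.46).

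Other genes of the water stress pathway were read from lists of dehydrins, ABA metabolism, ABA signalling, stress transcription factors, and osmolyte and ion genes. Of these, 51 genes were measured, each read by its brightest probe set. Between the parents 8 rose and 23 fell in the aromatic parent, and 20 did not pass, with a median log2 difference of -0.37. Over all 17905 genes 22.4% rose and 22.8% fell, with a median of -0.0086, whereas 15.7% of the list rose and 45.1% fell. Between the bulks 5 rose and 18 fell in the aromatic bulk, and 28 did not pass, with a median of -0.14. There, 9.8% of the list rose and 35.3% fell, beside 16.5% and 16.3% of all genes and a median of -0.0049. In both contrasts 19 list genes passed. On the aromatic side 15 of the 51 list genes (29.4%) fell in both, beside 8.32% of all genes, and the bright probe set of Dhn1 also read lower in both. The lists were written with earlier results of these data known, so these counts describe the pathway and are not independent evidence of its direction.

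**Figure D3:**
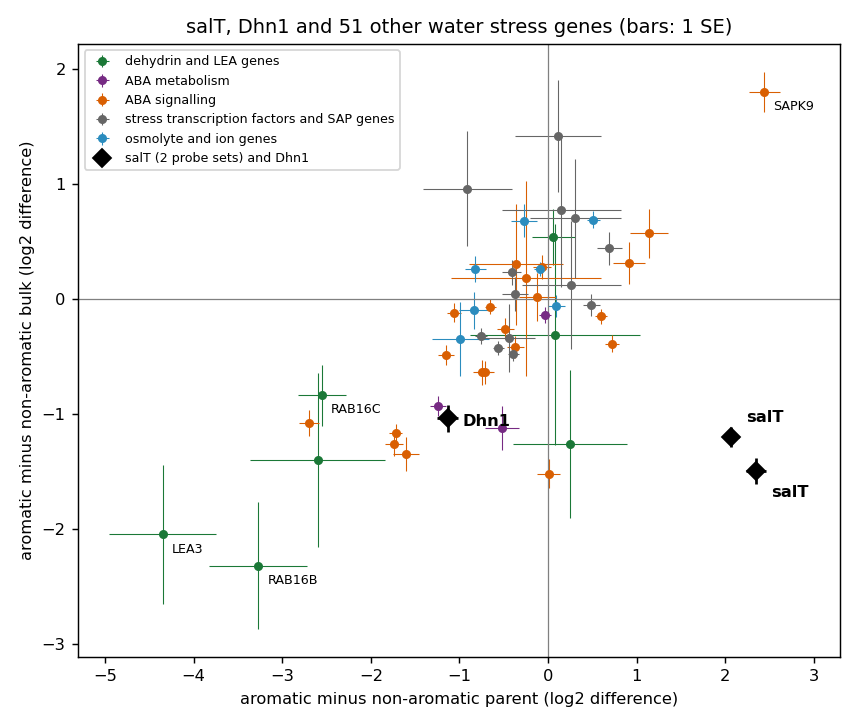
Aromatic minus non-aromatic log2 difference between the parents (horizontal) and between the bulks (vertical) for salT, Dhn1 and 51 other water stress genes; bars are 1 SE. Dhn1 (-1.13 and -1.04) lies among genes lower on the aromatic side in both contrasts. Both salT probe sets (2.07 and -1.20, 2.35 and -1.50) lie farther right than any list gene with a negative bulk difference.

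The dehydrin relatives of Dhn1 and the related LEA (late embryogenesis abundant) genes were mostly dim but were lower on the aromatic side where they passed. Of 7 such genes, 4 fell in the aromatic parent and 3 in the aromatic bulk, and none rose by limma (before adjustment, at p under 0.05, 0 were higher in that parent and 1 in that bulk). Of all genes, 22.8% fell between the parents and 16.3% between the bulks. RAB16B averaged 7.02 in Pusa 1121 against 68.7 in Pusa 1342, a log2 difference of -3.27 (SE 0.552, limma adjusted p = 0.000406). The aromatic bulk averaged 27.2 and the non-aromatic bulk 109.6, a difference of -2.32 (limma adjusted p = 0.00862). The bulk call did not hold when the bulks were fitted alone (limma adjusted p = 0.0527). LEA3 had means of 5.08 and 119.3 in the aromatic and non-aromatic parent and fell by 4.35 on the log2 scale (SE 0.602, limma adjusted p = 6.99e-05). Between the bulks its means were 12.6 and 45.1, a difference of -2.05 (limma adjusted p = 0.029). That call was lost when arrays 1, 3 or 4 of the aromatic bulk or 2 or 4 of the non-aromatic bulk were left out (limma adjusted p up to 0.0897), and with the bulks fitted alone (0.135). Most readings of these genes are below the array median, where differences depend on the pseudocount of 1.

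RAB16C was brightest in the non-aromatic parent, at 553.2, against 96.1 in the aromatic parent, and fell by 2.55 on the log2 scale (SE 0.269, limma adjusted p = 5.2e-06). The aromatic and non-aromatic bulks had means of 60.5 and 105.9, a difference of -0.84 (limma adjusted p = 0.0439). This smaller difference lost its call without any 1 of 11 arrays (limma adjusted p up to 0.123), and kept it without array 1 of either bulk, array 2 of the aromatic parent, or arrays 3 or 4 of the non-aromatic parent. The difference between the parents exceeded that between the bulks in size (limma interaction, -1.71, adjusted p = 0.0053). RAB21 fell in the aromatic parent (49.6 against 182.8, log2 -2.60, SE 0.759, limma adjusted p = 0.0205), a call lost with the parents fitted alone (0.109). Without array 4 of the aromatic parent its difference shrank to -1.58. Between the bulks RAB21 gave -1.40 (limma adjusted p = 0.255), and passed without that array (0.0106), with the bulks fitted alone (0.026) and with its probe sets averaged (0.015). The other, dimmer RAB21 probe set gave -4.26 between the parents and -2.12 between the bulks (limma adjusted p = 6.44e-05 and 0.0211). Both probe sets read 1 gene, so they are not separate evidence for it. RAB16D and RAB25 passed in neither contrast, with log2 differences between the parents of 0.25 and 0.079 (limma adjusted p = 0.847 and 0.973), and between the bulks of -1.26 and -0.31 (0.224 and 0.886). RAB21 and the RAB16 genes lie on chromosome 11 and are close relatives, so their probe sets may share signal.

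**Figure D4:**
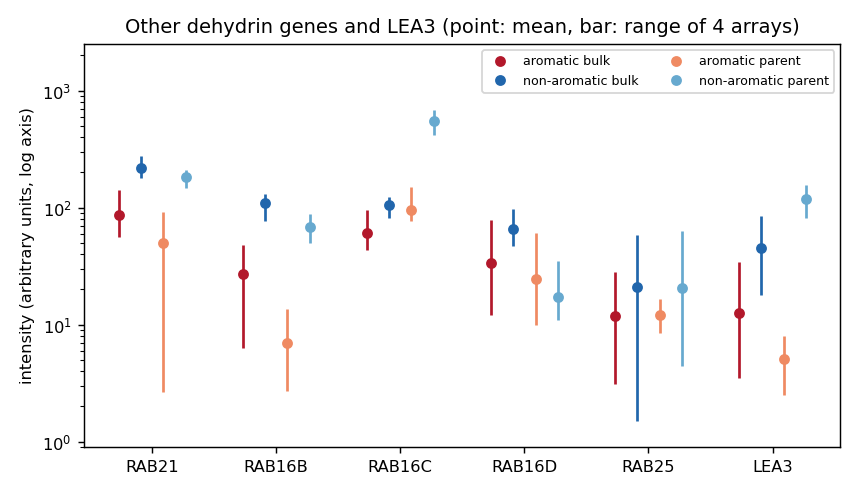
Intensity (arbitrary units, log axis) of the other dehydrin genes and of LEA3 in the 4 groups; points are means and bars run from the lowest to the highest of 4 arrays. RAB16C stands highest in the non-aromatic parent (553.2), and RAB16D and RAB25 overlap widely between groups.

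Of the 2 measured genes for enzymes that break ABA down, 1 fell on the aromatic side between the parents and both between the bulks. The shares of all genes that fell were 22.8% and 16.3%, and counts over 2 genes are not read further. ABA8OX2, an enzyme that breaks ABA down, averaged 1374 in Pusa 1121 against 3248 in Pusa 1342 and fell by 1.24 on the log2 scale (SE 0.0874, limma adjusted p = 8.79e-08). It also fell in the aromatic bulk (2038 against 3876, log2 -0.93, limma adjusted p = 4.85e-06). ABA8OX1, a second breakdown enzyme, fell in the aromatic bulk (179.1 against 387.7, log2 -1.12, limma adjusted p = 0.00084). Between the parents it gave -0.52 (limma adjusted p = 0.0628), and passed without array 2 or 3 of the aromatic parent or array 3 of the non-aromatic parent (limma adjusted p from 0.028 to 0.0454). ABA1, which acts in ABA synthesis, passed in neither contrast (-0.035 and -0.14).

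Of the 7 protein phosphatase genes, which restrain ABA signalling, 4 fell and 1 rose in the aromatic parent, and 5 fell and none rose in the aromatic bulk (1 was higher by limma before adjustment at 0.05). The shares of all genes were 22.8% lower and 22.4% higher between the parents, and 16.3% and 16.5% between the bulks. PP2C06 had the smallest adjusted p of the signalling list between the parents, with means of 637.3 and 4141 in the aromatic and non-aromatic parent (log2 -2.70, SE 0.112, limma adjusted p = 4.26e-10). It differed less between the bulks (1029 and 2165, log2 -1.08, limma adjusted p = 1.09e-05, interaction adjusted p = 5.19e-06). PP2C09 had parental means of 909.2 and 3033 (log2 -1.74, limma adjusted p = 1.61e-08) and bulk means of 1013 and 2421 (log2 -1.26, limma adjusted p = 1.44e-06).

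The 10 SnRK2 kinase genes were mixed: between the parents 3 rose and 5 fell on the aromatic side, and between the bulks 1 rose and 3 fell. Beside the all-gene shares of 16.5% higher and 16.3% lower, the bulk counts are near the background, as is the higher count between the parents (22.4% of all genes, with 22.8% lower). SAPK9, picked after its values were seen, rose in both contrasts (log2 2.44 and 1.80, limma adjusted p = 1.12e-07 and 6.7e-06). Both bZIP genes, TRAB1 and BZIP23, fell in both contrasts. BZIP23, an activator of ABA-responsive genes, had means of 1430 and 4712 in the aromatic and non-aromatic parent (log2 -1.72, SE 0.0775, limma adjusted p = 9.74e-10). In the aromatic and non-aromatic bulk its means were 1999 and 4487 (log2 -1.17, limma adjusted p = 2.09e-07).

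The combination of signs that salT showed was also seen, with both contrasts passing, in 1 of the 51 list genes. Other list genes had these signs without passing in both. SAPK2, a kinase gene picked after its values were seen, rose in the aromatic parent (log2 0.72, limma adjusted p = 4.79e-06) but fell in the aromatic bulk (log2 -0.39, limma adjusted p = 0.00201). Over all genes, 435 of 17905 (2.43%) passed in both contrasts with these signs.

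Stress transcription factors outside the core ABA pathway passed about as often as all genes: 6 of 13 (46.2%) between the parents beside 45.2% of all genes, and 4 of 13 (30.8%) between the bulks beside 32.8%. None of the 7 DREB genes, whose products bind drought and cold response elements, passed between the bulks by limma (1 did before adjustment at 0.05), and only DREB2B passed between the parents, rising by 0.49. The stress NAC genes fell in both contrasts on their brightest probe sets, NAC5 by 0.76 and 0.32 and NAC6 by 0.39 and 0.48 on the log2 scale (limma adjusted p between 1.13e-06 and 0.00451). These calls do not extend to their other probe sets: averaged over its probe sets, NAC6 gave 0.26 between the parents (limma adjusted p = 0.472). SAP8, a stress-associated zinc finger gene, fell by 0.56 and 0.43 (limma adjusted p = 8.21e-06 and 0.000179).

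On the aromatic side, 1 of the 7 osmolyte and ion genes rose and 3 fell between the parents. Between the bulks 3 rose and 0 fell by limma. The shares of all genes were 22.4% higher and 22.8% lower between the parents, and 16.5% and 16.3% between the bulks. ADC1 makes the polyamine precursor agmatine. It rose by 0.51 in the aromatic parent and 0.69 in the aromatic bulk (limma adjusted p = 8.5e-05 and 1.36e-05). Its other probe set did not pass, with differences of 0.018 and 0.13. The calcium sensor gene CBL4 fell in the aromatic parent (log2 -0.82, limma adjusted p = 8.72e-05) and gave 0.26 between the bulks (0.156). Of the trehalose phosphate phosphatase genes, TPP2 fell between the parents (log2 -0.84, limma adjusted p = 0.00122) and TPP1 rose between the bulks (log2 0.68, limma adjusted p = 0.00398).

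Markers of leaf, of other tissues and of leaf ageing moved in part with Dhn1. The summed leaf markers were lower on the aromatic side without overlap, at 112605 to 113780 and 120761 to 123004 in Pusa 1121 and Pusa 1342, and at 120880 to 124679 and 126059 to 132064 in the aromatic and non-aromatic bulk. Singly they were mixed: FBP1, of the sugar synthesis pathway, gave -1.10 between the parents (limma adjusted p = 2.24e-08) and -0.28 between the bulks (0.00983), while RBCS, of the carbon-fixing enzyme, gave 0.44 between the parents (0.000245). RCA gave -0.42 between the parents (9.49e-05), and CAB2R passed in neither contrast. CAB2R reached 45123, the highest intensity in the data, in all 4 groups, as did RCA in the non-aromatic parent. Differences at that ceiling may be hidden, which also limits the summed leaf markers. The summed intensity of 3 root markers was 1067 to 1392 in Pusa 1121 against 1596 to 1913 in Pusa 1342, and 1547 to 1664 and 2531 to 2743 in the aromatic and non-aromatic bulk. That sum is mostly LSI1, a silicon transporter gene, whose differences were -0.53 and -0.77. SGR, which starts chlorophyll breakdown in ageing leaves, was lower on the aromatic side, with log2 differences of -1.95 between the parents (limma adjusted p = 2.13e-09) and -1.18 between the bulks. The other ageing markers did not follow it: NYC1 and OSL2 were higher in the aromatic parent, by 0.53 and 0.24 (limma adjusted p = 0.000991 and 0.00961), and NOL gave -0.21 (0.084). Between the bulks NYC1, OSL2 and NOL gave -0.045, 0.16 and 0.016 (limma adjusted p = 0.834, 0.0986 and 0.936). The 4 ageing markers summed to 8938 to 10634 and 10407 to 11817 in the aromatic and non-aromatic parent, which overlap, and to 9358 to 10170 and 11661 to 12489 in the bulks, which do not. The 5 seed markers gave 6041 to 6267 and 5214 to 6284 in the parents, and 5405 to 6231 and 3843 to 4685 in the bulks. The part of these markers in the levels of Dhn1 and salT was not tested.

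**Figure D5:**
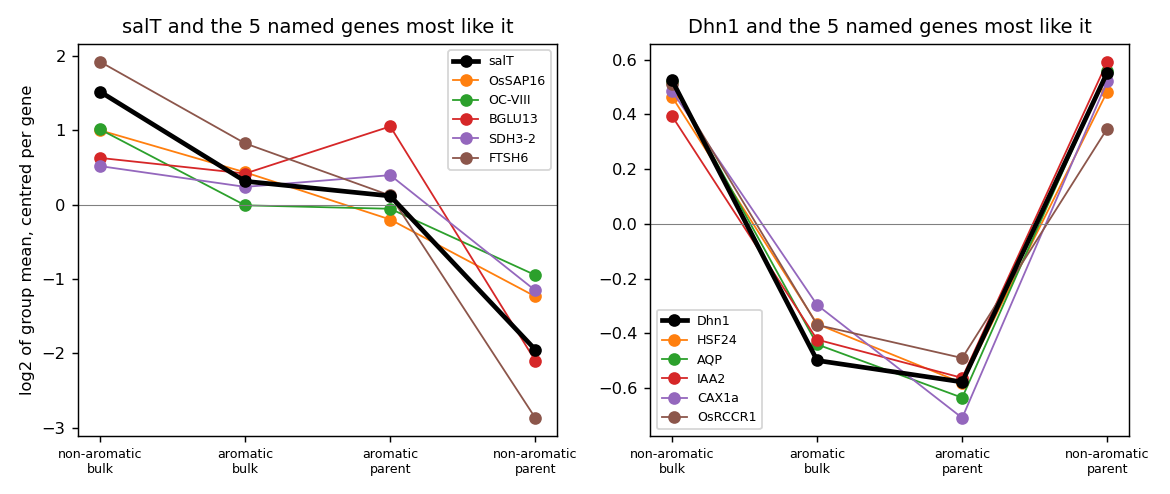
Log2 of the group means, centred per gene, for salT (left) and Dhn1 (right, both in black) and for the 5 named genes with the most similar profile over 16 arrays. The Dhn1 profile is matched to within 0.14 on average by its 5, and the closest to salT, OsSAP16, differs by 0.42.

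Among 2446 genes with a published name, likeness was measured as the mean absolute difference between centred log2 profiles over the 16 arrays. For Dhn1 the closest were HSF24 (0.124), AQP (0.133), IAA2 (0.138), CAX1a (0.139) and OsRCCR1 (0.14). HSF24, named as a heat stress transcription factor, had means of 1520, 2703, 1309 and 2740 in the aromatic bulk, non-aromatic bulk, aromatic parent and non-aromatic parent. AQP, named as an aquaporin or water channel, had 13675, 26577, 11947 and 27338 in the same order. These are descriptions of profiles that were searched for, so no test is given.

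No named gene came as close to salT. The measure is not scaled to a gene's range, which was wider for salT (3.47 between the non-aromatic bulk and parent) than for Dhn1 (-1.13 between the parents). The nearest were OsSAP16 (0.42), OC-VIII (0.501), BGLU13 (0.546), SDH3-2 (0.551) and FTSH6 (0.56). OsSAP16, a gene of the stress-associated zinc finger family, had means of 1197, 1771, 770.9 and 376.2 in the same order of groups. FTSH6, named as a chloroplast protease, had 587.7, 1258, 361.7 and 45.5. OC-VIII, named as a cystatin, had 1419, 2880, 1374 and 740.4. The means of OsSAP16, FTSH6 and OC-VIII rank the groups as those of salT do, with smaller or larger ranges.

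The genes beside salT and Dhn1 on their chromosomes were chosen for a look after the data were seen, and none of those measured passed in both contrasts. Of the 5 genes on either side of salT, 5 were measured. Between the parents 2 of these fell, LOC4326503 by 0.96 and LOC4326469 by 0.98 on the log2 scale, and none rose, whereas salT rose. By limma none of them passed between the bulks, where 2 did before adjustment at 0.05. Of the 5 genes on either side of Dhn1, 5 were measured, with 1 higher and 1 lower between the parents and 0 between the bulks by limma, before adjustment as well as after. Over all genes 22.4% rose and 22.8% fell between the parents, and 16.5% and 16.3% between the bulks. Counts over 5 genes do not set the neighbours apart from these shares.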

How the data were processed

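Biotin-labelled leaf RNA (Qiagen extraction, per the labels' protocols) was hybridised to 16 Affymetrix rice arrays. GCOS 1.2 and RMA are listed, without saying what each did, per the submitters' processing notes. Of other settings, and of the genome build, nothing is given in the sources used here. Per probe set and array the authors deposited 1 linear intensity, with the same distribution on every array, as read from the table, which hides any shift shared by all genes of a group. Detection calls were not applied.

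Of 57381 probe sets, 187 controls were left out. Names came from the platform annotation, updated with the gene table of assembly ASM3414082v1: 22436 probe sets carried a single gene, and 95 with several were left unnamed. A list gene was read by its brightest probe set by the mean of 16 arrays. Of 115 list names, 50 had no match, among them all jacalin-related lectins.

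Groups came from the labels. Values were fitted as log2(value + 1) with limma 3.58.1 in R 4.3.3 (4 group means, 12 residual degrees of freedom), two-sided, with Benjamini-Hochberg adjustment over 57194 probe sets and a threshold of 0.05. The median residual SD was 0.196 in the brighter and 1.09 in the dimmer probe sets, and 4 arrays per group limit the precision. The fit was tested on simulated data. The members and the lists were chosen with earlier results of these data known. Besides the members, the text names every measured dehydrin, up to 3 genes per list with the smallest adjusted p between the parents and up to 2 between the bulks, and the 5 named genes most like each member. ABA1, TRAB1, SAPK2, SAPK9, DREB2B, the markers and the neighbouring genes were picked after their values were seen. Alternatives were another pseudocount, the brighter probe sets only, median centring, 2 groups per fit, a trend with robust variance, the replicate number as a block, averaged probe sets, and each array left out.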

Additional observations from a re-analysis of the deposited data

Results flagged for a closer look

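In 11 of 92 groups of 4 arrays looked at, 1 array stood apart from the other 3 by Dixon's criterion for a gap. The criterion was applied to linear intensities, whereas the fits used log2(value + 1). Its chance rate of about 1 group in 20 assumes normally distributed values, which was not tested here. All 11 flagged readings were the highest of their group. The count is therefore not compared with chance, and the criterion was not applied on the log2 scale. For salT, array 2 of the aromatic parent read 1144 on the first probe set (others 1038 to 1052), and array 2 of the aromatic bulk read 734.9 on the second (others 593.8 to 614.3). On the second dim Dhn1 probe set, array 4 of the aromatic bulk read 67.02 (others 4.26 to 10.67) and array 2 of the non-aromatic bulk 52.06 (others 5.864 to 10.52).

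Among the dehydrin and LEA genes, RAB16C read 149.3 on array 2 of the aromatic parent, and RAB16D read 61.12 on array 3 of the aromatic parent and 34.63 on array 2 of the non-aromatic parent. RAB25 read 63.62 on array 4 of the non-aromatic parent, and LEA3 read 34.56 on array 2 of the aromatic bulk. Of the bright genes, SAP8 read 23026 on array 2 of the non-aromatic bulk (others 22419 to 22516) and ADC1 12987 on array 4 of that bulk (others 11287 to 11482).

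The difference between the parents and that between the bulks were unlike for several genes. For salT every array moved one way between the parents and the other way between the bulks, with differences of 3.27 and 3.85 on the 2 probe sets that were not tested. In limma's interaction test over all probe sets, the parental minus the bulk difference was -1.71 for RAB16C (adjusted p = 0.0053) and -1.62 for PP2C06 (adjusted p = 5.19e-06). It was -0.55 for BZIP23 (0.00229), -0.48 for PP2C09 (0.033) and -0.44 for NAC5 (0.00511). It was -1.08 for CBL4 (0.000282), -0.73 for TPP2 (0.037) and -0.96 for TPP1 (0.00382).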

How the results depend on the processing

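Over 23 alternatives, 16 of them leaving out 1 array each, the parental calls of salT and of the bright Dhn1 probe set kept direction and side of the threshold. With an array left out, salT ranged from 2.03 to 2.12 between the parents and from -1.24 to -1.16 between the bulks, and Dhn1 from -1.17 to -1.09 and from -0.91 to -1.12. With the probe sets of a gene averaged, salT gave -1.35 between the bulks. Dhn1 then gave -0.047 between the bulks, where 2 of the 3 averaged probe sets are dim, and its parental adjusted p was 0.0423. With the same averaging only the 17905 genes entered the fit, and 9059 of them passed between the parents. That count is not comparable with the 14777 of 57194 probe sets. Read by the brightest probe set, 8097 of the 17905 genes passed. Adjusted p-values under averaging are therefore adjusted over fewer tests than the others. The list genes passing numbered 29 to 32 between the parents (31 as reported) and 19 to 28 between the bulks (23).

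Of 27 calls of named list genes, 19 held under every alternative that tested them, and the 8 others belong to RAB21, RAB16B, RAB16C, LEA3, NAC5 and NAC6. Signs turned for NAC6 (0.26 between the parents, probe sets averaged) and for RAB25 between the parents with a pseudocount of 16 (-0.12). With 1 array left out, values crossed 0 for the second dim Dhn1 probe set (-0.62 to 0.042), RAB16D (-0.31 to 0.63) and RAB25 (-0.30 to 0.89) between the parents, and between the bulks for RAB25 (-1.08 to 0.45) and the second dim Dhn1 probe set (-0.68 to 0.75). Apart from NAC6, none of these had passed or, for Dhn1 between the bulks, been tested. With the replicate number as a block, salT gave 2.07 (adjusted p = 8.68e-08) and Dhn1 -1.13 (6.55e-05) between the parents, and RAB16C lost its bulk call (0.0724). The replicate block changed no other call of a named gene. Equal numbers do not pair the arrays: 0 of 24 same-number pairs correlated above 0.1, and 4 of 16 arrays correlated best with their own number. Low signal limits the dim Dhn1 probe sets, which were not tested among the brighter probe sets.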
